A study of Mus musculus with 6 samples.

Results

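The stretch of mouse chromosome 1 from 85 to 91 Mb (build mm9) carried 387 of the 4012 rows of the deposited Cbp peak list. Its members are all rows of the list, of any of its 3 consecutive runs (called blocks here), that start inside this 6 Mb. The file and labels do not say what the blocks are, so a difference between them has no stated meaning. Rows that share 1 bp or more were merged, which left 172 regions out of 3014 in the whole list. The stretch was picked because rows are crowded there, so the crowding itself, and every Cbp value inside the rows, is given as a description and supports nothing. The nearest region before it, at 84985139 to 84985538, had 9 reads in Cbp and 0 in IgG. The first inside it, at 85071641 to 85072065, held 13 Cbp and 6 IgG reads. At the other end the last region inside, at 90591085 to 90591484, held 13 and 4, and the first one beyond, at 91131926 to 91132325, held 22 and 1.

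The data are 1 chromatin immunoprecipitation sequencing (ChIP-seq) library made with a rabbit polyclonal antibody against Cbp and 1 made with rabbit IgG. Both came from untreated BM-HPC cells, an established line that is labelled as a blood progenitor or stem cell and was taken from mouse marrow of strain C57BL/6-cast. The medium held human IL-6 at 10 ng/ml and SCF, stem cell factor, at 100 ng/ml, and the crosslinker was 1% formaldehyde. The 4 flow-sorted LSK samples of the same series (Cbp wt and Cbp Mx mice after pIpC) were not analysed here. After removal of duplicate intervals the nuclear reads numbered 9388703 for Cbp and 6886428 for IgG, and 1.36 Cbp reads per IgG read, the ratio outside all listed rows, was used to scale the libraries. There is no replicate of either library, so intervals are exact 95% intervals for counting error only and no p-value is given.

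Cbp (CREB-binding protein) is a co-activator with lysine acetyltransferase activity. It does not read DNA itself but is brought to promoters and enhancers by transcription factors, and in blood-forming cells it is known for its part in keeping stem cells. A site bound by such a protein appears in ChIP-seq as a narrow pile of reads in the antibody library that the non-specific IgG library lacks. Background reads behave otherwise: a sequence that the cells carry in more copies than the reference assembly gathers more reads in every library, and bases that are unknown or cannot be placed in the assembly gather none. Comparing each place with the control is therefore the usual way to read a crowded part of a peak list.

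The later blocks of the list were concentrated in the stretch far more than the first. The first block had 84 rows there, 3.47% of its 2422 rows. By contrast, the second block had 153 of its 806 rows (19.0%) and the third 150 of its 784 (19.1%). On chromosome 1 alone the stretch held 16.9% of the first-block rows, 81.0% of the second-block rows and 81.5% of the third-block rows, on 3.04% of the chromosome's length. All 153 second-block rows shared bases with rows of the third block, and all 150 rows of the third block with rows of the second. Their positions were rarely the same, since 1 second-block row had exactly the position of a row in the third block, the median offset was 87 bp and the largest 384 bp. Merging gave 75 regions from the first block alone, 93 from the second and the third together and 4 that joined all blocks. Of the 93 later-block regions, 43 were built from 3 or more rows, and up to 8 rows ran into 1 region. First-block regions had a median width of 400 bp, that of a single row, whereas later-block regions had a median width of 638 bp and reached 2057 bp.

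Most regions sat in a few narrow places. The 172 regions correspond to 28.7 regions per Mb, against 2.32 per Mb on the rest of chromosome 1, a 12.3-fold difference. This fold depends on how rows are counted: it was 6.14 for the first block, 90.9 for the later blocks and 5.99 when regions within 1 kb were joined. Over bins with a read alone, there were 42.0 regions per Mb in the stretch and 2.36 on the rest of the chromosome. Of the 60 bins of 100 kb, 24 held a region and 5 held 10 or more, which together had 127 regions. No bin among the 1912 on the rest of the chromosome reached 10, and the richest of those had 6. The richest bin of the stretch, 90100001 to 90200000, held 67 regions, made of 22 first-block, 90 second-block rows and 82 rows of the third block. Next came 85200001 to 85300000 with 27 regions, 87400001 to 87500000 with 12, 87500001 to 87600000 with 11 and 85000001 to 85100000 with 10.

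Both libraries moved together along the stretch. The median bin held 566 Cbp and 417 IgG reads, against 467 and 329.5 on the rest of chromosome 1, which is 1.21 and 1.27 times the depth there. With bins of fewer than 10 IgG reads left out these values were 1.32 and 1.41. The richest bin was also the deepest, with 2709 Cbp reads (2790 with duplicates kept) and 1914 IgG reads (2196 with duplicates kept), 5.80 and 5.81 times the median of the rest. No bin on the rest of the chromosome held more than 872 Cbp or 648 IgG reads. The second richest bin had 1030 Cbp and 704 IgG reads, again above all of them. In the other 3 rich bins depth was nearer to the usual, with 603 Cbp and 419 IgG reads at 87400001, 755 and 505 at 87500001, and 460 and 338 at 85000001. The lowest bin with reads, 87300001 to 87400000, had 119 Cbp and 88 IgG reads.

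**Figure D1:**
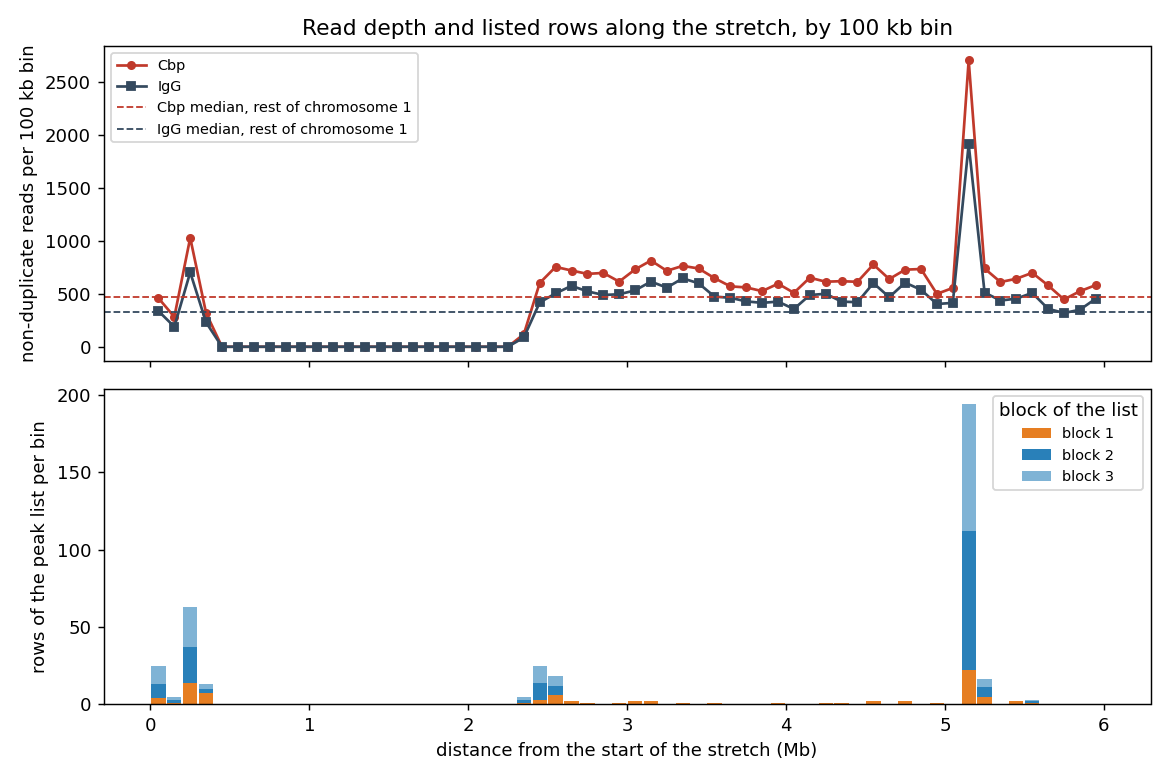
Non-duplicate reads per 100 kb bin in the Cbp and IgG libraries (upper panel, 1 point per bin, dashed lines at the medians of the rest of chromosome 1) and rows of the peak list per bin by block (lower panel), against distance from the start of the stretch in Mb. Both libraries peak in the bin with 67 regions (2709 Cbp and 1914 IgG reads) and hold no read in 19 bins in a row.

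A run of 2000222 bp without any read midpoint, from 85343469 to 87343690, split the stretch. Neither library had a read there, so 19 of the 60 bins were empty, and a count of 0 allows up to 3 reads per library for the whole run. The longest such run between reads on the rest of chromosome 1 was 406131 bp in Cbp and 405933 bp in IgG. The last region before the run ended 1276 bp from it, and the first region after it began 33600 bp beyond it. Why no read falls in the run was not tested.

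Regions were then joined into groups where neighbours lay within 20 kb and 10 or more followed each other. By this rule, chosen with the values known, chromosome 1 had 4 groups, all in the stretch, and the other chromosomes had the remaining 10 of the list's 14. The 4 groups held 145 of the 172 regions (84.3%), and 27 regions lay outside them. The first group spanned 85071641 to 85111660 with 12 regions, and the second 85235911 to 85342192 with 36, both on the near side of the empty run. The third spanned 87479300 to 87532447 with 22 regions on its far side. The fourth, at 90108517 to 90215553, was the densest, with 75 regions, or 7.01 per 10 kb against 2.999, 3.39 and 4.14 in the others. Regions covered 52.6% of its span, and 16.9%, 19.2% and 20.5% of the others.

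The 3 groups beside the empty run lay where read coverage was patchy. From the start of the stretch to the run, 55 of 343 windows of 1 kb (16.0%) had no read in either library. On the far side, up to the end of the third group, 29 of 189 (15.3%) had none. On the rest of chromosome 1, counted from its first read, 4.18% of windows had none. Median windows were also low on these sides, at 3 Cbp and 2 IgG reads and at 2 and 2, against 5 and 3 on the rest of the chromosome. Single windows nevertheless rose to 51 Cbp and 33 IgG reads on the near side and to 87 and 56 on the far side. The highest windows of the rest of chromosome 1 held 51 Cbp and 34 IgG reads. Taken over its whole span, the first group had 2.31 times the chromosome's median depth in Cbp and 2.59 times in IgG. For the second these values were 2.40 and 2.40, and for the third 3.03 and 3.005.

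Within these groups the control library was denser inside the listed regions than between them. In the first group Cbp had 34.1 reads per kb in regions and 6.70 between them, a 5.09-fold difference, and IgG had 19.1 and 6.70, a 2.85-fold difference. In the second group Cbp differed 4.16-fold (30.5 and 7.32 reads per kb) and IgG 2.71-fold (16.6 and 6.14). In the third it was 4.39-fold for Cbp (38.5 and 8.78) and 3.10-fold for IgG (22.2 and 7.14). The groups on other chromosomes had denser IgG reads inside their regions too, from 1.31-fold on chromosome 11 to 10.9-fold on chromosome 9. The list was made on the Cbp sample, so a Cbp excess inside its rows is built in, and the labels do not say whether the control entered the calling. The densest control region of the whole stretch belonged to the third group, at 87488766 to 87489229, with 47 Cbp and 38 IgG reads in 464 bp, a scaled ratio of 0.909.

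The fourth group coincided with a block of raised depth that began within 1 kb and fell off over several kb. The longest run of 10 kb windows at 3 or more times the median IgG depth was trimmed or extended to 1 kb windows at 2 or more times that depth, which put the block at 90108001 to 90209000, 101 kb long. A high IgG depth inside it follows from this choice, and the Cbp depth was not used. The window just before it held 2 Cbp reads and 1 IgG read, and its first window 27 and 16. At the far edge the last 4 windows held 36 and 28, 21 and 26, 21 and 9, and 8 and 11, and the next one 5 and 3. Inside the block the median window had 29 Cbp reads (lowest 4, highest 49) and 19 IgG reads (lowest 2, highest 44). In the 200 windows that flank it, 100 on each side, the medians were 5 (0 to 18) and 4 (0 to 15). Of the block's 101 windows, 89 stood above all flanking windows in Cbp and 79 in IgG. Depth dipped inside it in few places, at 90167001 to 90168000 (4 Cbp and 5 IgG reads) and at 90189001 to 90191000, where the windows held 7 and 2 and then 12 and 3.

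In both libraries the block was about equally raised. The Cbp library had 28.6 reads per kb in it and 5.66 in each flank, a 5.04-fold difference (4.71 to 5.41). The IgG library had 20.1 reads per kb against 4.24 and 3.91, a 4.94-fold difference (4.55 to 5.36). The Cbp fold divided by the IgG fold was 1.02 (0.919 to 1.14, log-normal interval). A gain of Cbp over IgG of more than 1.14 times across the block lies outside this counting interval. The block was placed on IgG depth, however, which can raise the IgG fold and lower the quotient. The interval does not cover that choice. The scaled Cbp-to-IgG ratio was 1.04 (0.985 to 1.10) in the block, and 0.981 (0.863 to 1.12) and 1.06 (0.933 to 1.21) in the flanks. Duplicates made up 2.96% of the block's Cbp reads, against 1.39% in each flank, and 12.5% of its IgG reads, against 13.6% and 13.5%. What raised the depth was not tested. No input DNA library was analysed here.

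**Figure D2:**
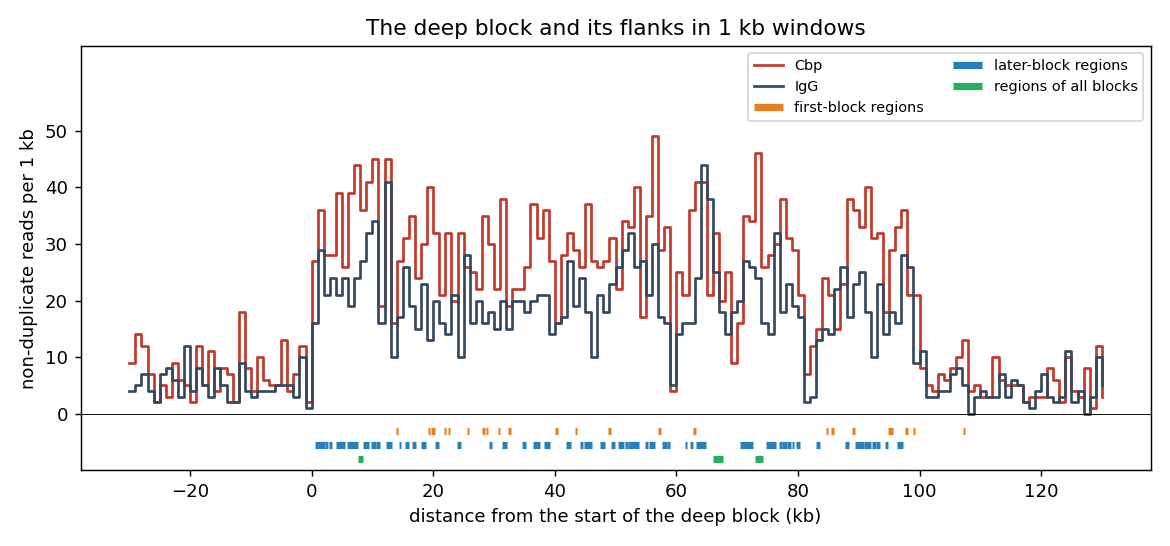
Non-duplicate reads per 1 kb window in the Cbp and IgG libraries (lines) and the merged regions by block of the list (bars under the axis), against distance from the start of the deep block in kb. Both lines step up at 0, from flank medians of 5 and 4 reads to block medians of 29 and 19, and fall over the last windows before 101 kb.

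Inside the block the listed regions stood out little from their surroundings. Regions of the fourth group had 35.0 Cbp reads per kb, against 18.8 between them, a 1.87-fold difference, and 22.0 and 16.0 IgG reads per kb, a 1.37-fold difference. The sequence between them was thus itself denser than the flanks, which had 5.66 Cbp reads per kb. The group's span ends at 90215553, beyond the block's end at 90209000, so part of that sequence lies outside the block. The widest region, at 90178541 to 90180597 (2057 bp, 7 rows), held 70 Cbp and 48 IgG reads, a scaled ratio of 1.07 (0.732 to 1.58). The next widest, at 90113753 to 90115572, held 66 and 33 (1.47, 0.954 to 2.30), and the one at 90174064 to 90175752, which joined all blocks, held 45 and 37 (0.894, 0.566 to 1.42). Among the 5 regions of the stretch with most Cbp reads when duplicates are kept, 4 were in this group. Besides the 2 widest these were 90171259 to 90172935, with 68 Cbp reads in both counts and 58 IgG reads (70 with duplicates kept), and 90160126 to 90161790, with 64 Cbp (65) and 52 IgG (56) reads.

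Short tiles show what a row-sized piece of the block holds. Chromosome 1 was cut into tiles of 400 bp, the width of a row, and tiles with a read in either library were kept. The median tile of the block held 11 Cbp and 8 IgG reads, where the median over the 27 regions outside the groups was 10 Cbp and 3 IgG reads. The flanks had a median of 2 Cbp reads and 1 IgG read per tile. In the block 163 of 252 tiles (64.7%) held 10 or more Cbp reads, and 72 (28.6%) held 10 or more IgG reads. In the flanks 0 of 475 did so in either library. Over the whole stretch 102 tiles had 10 or more IgG reads, more than the 80 on all of the rest of chromosome 1, which has 419514 tiles. Of the tiles with 10 or more Cbp reads, 87.7% in the block and 86.6% in the stretch touched a listed row, against 45.3% on the rest of chromosome 1. Of all tiles, whatever their count, 75.8% in the block, 4.38% in the stretch and 0.210% on the rest touched one. The median IgG count of the tiles with 10 or more Cbp reads was 9 in the block and 2 on the rest of the chromosome. The list and the tiles share the same Cbp reads, so this overlap is no independent evidence for the rows.

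Between the third group and the block the stretch looked more like the rest of the chromosome, though somewhat deeper. The 25 bins from 87600001 to 90100000 held 500 to 815 Cbp reads (median 649) and 357 to 647 IgG reads (median 490). All 25 exceeded the median bin of the rest of the chromosome in both libraries, by 1.07 to 1.75 times in Cbp and 1.08 to 1.96 times in IgG. They carried 18 regions, all from the first block. From the end of the third group to the deep block, 42 of 2575 windows of 1 kb (1.63%) had no read. Beyond the block, from 90209001 to the end of the stretch, there were 5 regions.

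The largest Cbp excess of the stretch lay in these bins and not in a group. At 88330943 to 88331342 a first-block row held 62 Cbp reads (75 with duplicates kept). The IgG library had 2 reads there in both counts, which gives a scaled ratio of 22.8 (6.05 to 192). Its excess was 59.3 Cbp reads over the scaled control, and the next largest was 21.1. In the surrounding 10 kb Cbp reads were 21.3 times less dense than in the region, while for IgG the region had 0.842 times the density around it. The pile was compact: the central 200 bp held 42 Cbp reads and 0 IgG reads, and the central 1 kb held 69 and 4. Midpoints centred 35.5 bp before the middle of the row, with quartiles at -90.25 and 19.5 bp. The 62 distinct intervals included 11 that were read more than once, and the highest stack was 3 reads. Its 100 kb bin, 88300001 to 88400000, still had the lowest Cbp-to-IgG ratio of all bins in the stretch, 0.869 (0.782 to 0.966), with 765 Cbp and 647 IgG reads.

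**Figure D3:**
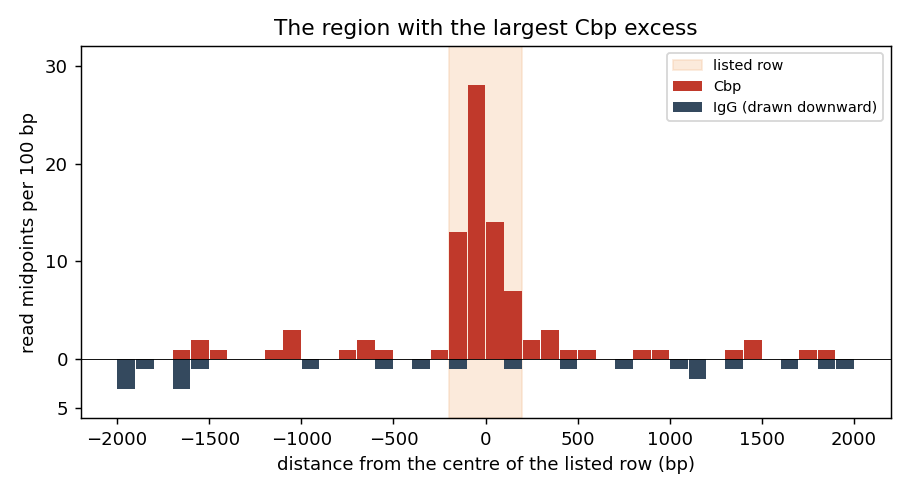
Read midpoints per 100 bp around the region at 88330943 to 88331342, Cbp upward and IgG downward, against distance from the centre of the listed row in bp (shaded). The 62 Cbp reads gather within the 400 bp row, where the IgG library has 2.

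The other regions outside the groups were weaker. Over all 27 the Cbp count ran from 7 to 62 with a median of 10, and the IgG count from 1 to 8 with a median of 3. After the region just described, the highest ratios were 10.3 (1.57 to 435) at 89522907 to 89523306, with 14 Cbp reads and 1 IgG read, and 6.61 (0.916 to 290) at 89348423 to 89348822, with 9 and 1. Intervals this wide show how little such counts settle. Between the start of the stretch and the third group lay 4 regions outside the groups, which begin at 85162066, 87377291, 87377939 and 87391458. They held 12 and 8, 8 and 3, 10 and 7, and 16 and 7 reads in Cbp and IgG. They stood 10.0, 10.1, 12.5 and 12.2 times above the surrounding 10 kb in Cbp, and 10.4, 5.54, 16.6 and 7.90 times in IgG. Reads were thus denser there than around in both libraries.

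Summed over the stretch, Cbp and IgG were level. The whole stretch held 27451 Cbp and 20263 IgG reads, or 0.292% and 0.294% of the libraries, a scaled ratio of 0.996 (0.978 to 1.01). With duplicates kept, 28032 and 23122 reads gave 0.998 (0.981 to 1.02). The rest of chromosome 1 had a ratio of 1.01 (1.01 to 1.01). Inside the regions 3579 Cbp and 2045 IgG reads gave 1.29 (1.22 to 1.36), whereas outside them 23872 and 18218 gave 0.963 (0.945 to 0.982). Regions on the rest of chromosome 1, chosen by the same list, had a ratio of 2.81 (2.64 to 2.99). The 40 bins with 100 or more IgG reads had ratios from 0.869 to 1.19, inside the range of 0.803 to 1.36 over the 1877 such bins elsewhere on the chromosome. Counting intervals held 1 in 37 of the 40, lay below 1 in 2 (5%) and above 1 in 1 (2.5%). Of the 1877 bins elsewhere they held 1 in 1683, lay below 1 in 76 (4.05%) and above 1 in 118 (6.29%). The highest ratio, 1.19 (1.04 to 1.36), belonged to 90600001 to 90700000, a bin without any region (580 Cbp and 359 IgG reads).

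The ratio inside regions differed between kinds of region. First-block regions of the stretch, with 928 reads in Cbp and 414 in IgG, had a ratio of 1.65 (1.47 to 1.85), and first-block regions of the list outside the stretch had 2.99 (2.91 to 3.07). Later-block regions held 2495 and 1530, a ratio of 1.20 (1.12 to 1.28). The 537 regions outside the stretch with a later-block row, joined ones included, had 0.952 (0.930 to 0.974). Deep regions weigh most in such sums. The median ratio of single later-block regions was 1.26 in the stretch and 1.23 outside it. By position the ratios of summed reads were 1.31 (1.05 to 1.64), 1.35 (1.18 to 1.54), 1.28 (1.09 to 1.503) and 1.17 (1.09 to 1.26) in the first to the fourth group. In the 27 regions outside the groups the ratio was 2.59 (2.06 to 3.29). The reads between regions showed the reverse, with ratios of 0.735 (0.608 to 0.889), 0.877 (0.780 to 0.987), 0.903 (0.773 to 1.05) and 0.861 (0.783 to 0.946) in the groups. Over the whole span of each group the ratio was 0.946 (0.821 to 1.09), 1.06 (0.973 to 1.16), 1.07 (0.957 to 1.20) and 1.05 (0.989 to 1.11), and all 4 intervals held 1. The rows were chosen on Cbp reads, so the values inside and between them are not independent of each other.

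Few regions of the stretch were far above the control. A region was called past 2-fold where its Cbp count was 2 or more times the scaled IgG count, with IgG raised to a floor of 3 reads. Over all 3014 regions of the list 51.3% were past 2-fold with Cbp higher and 1.03% with IgG higher. In the stretch 35 of 172 regions were past 2-fold with Cbp higher, and 0 with IgG higher. Since the list was made on the same Cbp reads, nothing is read from these shares beyond the values. Outside the groups 15 of 27 passed. In the first to the fourth group 4 of 12, 9 of 36, 2 of 22 and 5 of 75 did. Of first-block regions 27 of 75 passed, of later-block regions 8 of 93, and of the 4 joined regions 0. In the list outside the stretch 59.1% of first-block and 27.5% of later-block regions passed. Past 4-fold there were 2 regions of the stretch, with IgG at the floor. The share of the whole list past 4-fold is not given here. These were the region at 88330943 (15.2-fold) and that at 85099304 to 85099965 in the first group (4.90-fold). The latter held 20 reads in Cbp and 2 in IgG, and without the floor its ratio was 7.35 (1.79 to 64.8). Of the 3014 regions of the list 385 had no IgG read, and on the rest of chromosome 1 54 of 444. In the stretch 1 of 172 had none, at 85283097 to 85283496 in the second group. Its 10 Cbp reads were 2.45 times the scaled floor of 3 IgG reads, and the counting interval of its ratio began at 1.65.

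**Figure D4:**
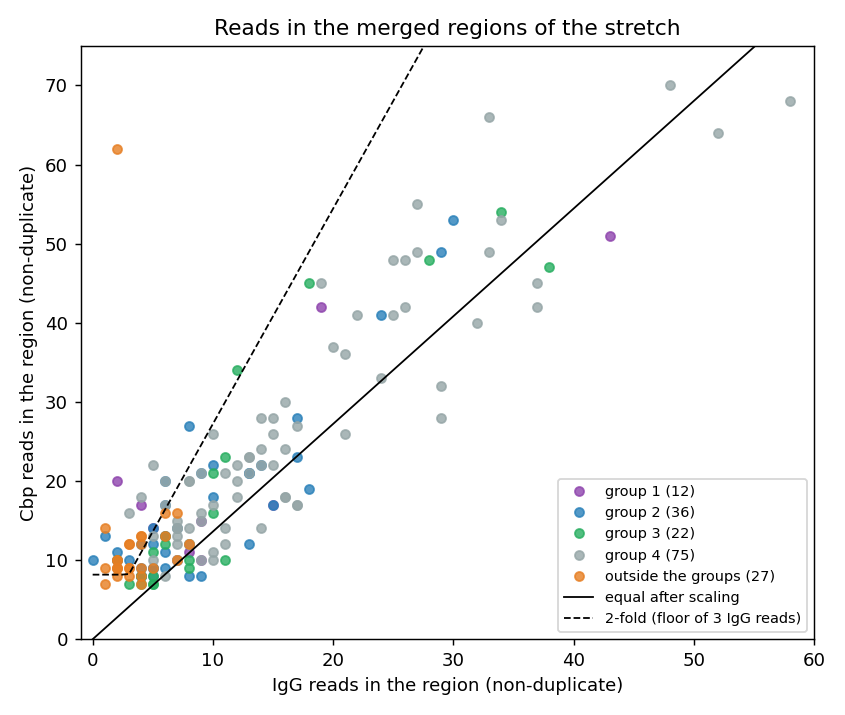
Cbp against IgG non-duplicate reads in each of the 172 merged regions, coloured by group, with the line of equal scaled counts and the 2-fold line. Of the fourth group 56 of 75 points lie above the line of equality and 5 past the 2-fold line, and the region with 62 Cbp and 2 IgG reads stands apart from the others.

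Among the 10 regions with the largest Cbp excess in reads, 9 lay inside the groups, which held 84.3% of all regions of the stretch. Counts in the groups are high in both libraries. The region at 87521424 to 87522267 in the third group held 45 Cbp and 18 IgG reads (1.84, 1.04 to 3.37). In the fourth group, 90198934 to 90200065 held 45 and 19 (1.74, 0.998 to 3.15), 90182717 to 90184339 held 55 and 27 (1.497, 0.928 to 2.47) and 90131874 to 90132499 held 22 and 5 (3.23, 1.19 to 10.9). The third group also had 87485219 to 87486002 with 34 and 12 reads (2.08, 1.05 to 4.42). On the near side of the empty run, 85086779 to 85087574 held 42 and 19 (1.62, 0.924 to 2.96) and 85273564 to 85273971 held 27 and 8 (2.48, 1.10 to 6.32). The remaining ones, 90113753 and 85099304, are given above. Ratios of these 9 were between 1.47 and 7.35, and most of their intervals reached down to about 1.

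In 32 regions the scaled ratio was below 1, and the counting interval held 1 in all 32. The lowest ratio, 0.653 (0.219 to 1.91), belonged to 85303053 to 85303452 in the second group, where 8 Cbp and 9 IgG reads were counted, and its interval leaves the difference unsettled. In reads, the largest IgG excess lay at 90158482 to 90159341, where 28 Cbp reads met 29 from IgG, a ratio of 0.710 (0.407 to 1.24). The region at 90171259, described above, followed with 0.862 (0.598 to 1.24). Others were 90120185 to 90121245 with 42 and 37 reads (0.834, 0.523 to 1.33), 85082775 to 85084410 with 51 and 43 (0.872, 0.569 to 1.34) and 90117746 to 90118527 with 32 and 29 (0.811, 0.475 to 1.39). All 5 intervals held 1. In all, 140 of the 172 regions had more Cbp than scaled IgG reads, as had 2691 of the 3014 in the list.

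Control depth, measured without the Cbp library, was highest on chromosome 1 in windows of the stretch. Of 19155 windows of 10 kb with an IgG read, 15 (0.0783%) had 3 or more times the median IgG count of 34 reads. All 15 lay in the stretch, and the same 15 had 3 or more times the median Cbp count of 49. The deepest window of the stretch had 7.18 times the median in IgG and 7.04 times in Cbp. On the rest of the chromosome no window was above 2.62 times in IgG or 2.84 times in Cbp. The stretch was not alone in this across the genome: the 10 groups on other chromosomes had 1.57 to 21.4 times the chromosome 1 median in IgG over their spans, with 19.98 on chromosome 11 and 21.4 on chromosome 9. A region started in each of the 15 windows, and they held 102 of the 172 regions with 36 first-block and 124 second-block rows. The labels do not say whether IgG reads entered the choice of the members. Deep places gather more Cbp reads too, so depth and the listing of rows cannot be told apart here.

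Listed regions were more frequent at higher control depth on the rest of chromosome 1, and in the stretch the shares rose from 1 times the median upward. Elsewhere on the chromosome a region started in 0.663% of windows with 0.5 to 1 times the median IgG count, in 2.21% at 1 to 1.5 times, in 7.98% at 1.5 to 2 times and in 13.1% at 2 to 3 times. In the stretch the shares were 12.8% (6 of 47 windows), 3.73% (6 of 161), 17.8% (21 of 118) and 36.4% (12 of 33). The share was the higher one in the stretch in each of these 4 classes. The counts are of neighbouring windows of 1 library and are given as a description.

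**Figure D5:**
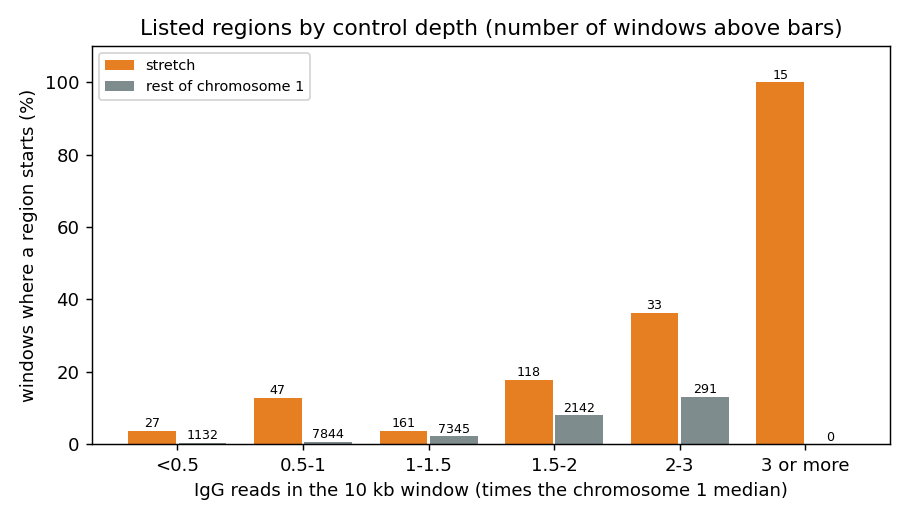
Share of 10 kb windows in which a merged region starts, by the window's IgG count relative to the chromosome 1 median, in the stretch and on the rest of chromosome 1, with the number of windows above each bar. The share rises with control depth on the rest of the chromosome up to 13.1%, and all 15 windows at 3 or more times the median lie in the stretch.

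Keeping stacks of identical reads changed the summed ratios of the stretch little. Whether stacks shaped which rows were listed was not tested. In the stretch 2.07% of Cbp reads were duplicates, against 1.59% on the rest of chromosome 1, and 12.4% of IgG reads, against 11.4%. The highest stack was 3 reads in Cbp and 5 in IgG. Keeping duplicates moved the ratio inside the regions of the stretch from 1.29 to 1.30, whereas over the whole list it turned from 1.61 (1.58 to 1.63) to 0.869 (0.862 to 0.875).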

How the data were processed

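Both libraries were deposited as intervals on build mm9, per the submitters' processing notes, with chromosome, start and end and no strand or count. All but 23 Cbp and 51 IgG intervals are 200 bp long. The deposited peak rows are 400 bp wide without a score. The aligner, caller and thresholds were not given in the sources used here. Intervals at one identical position were counted once (3.87% of Cbp and 14.6% of IgG nuclear reads were removed), mitochondrial reads were left out, and a read was counted where its midpoint lay. A count of 0 is compatible with up to 3 reads, 3.20e-05% of the Cbp and 4.36e-05% of the IgG library. Ratios have exact conditional (Clopper-Pearson) 95% intervals. These cover counting error only, since reads without molecular identifiers are not independent molecules. Functions were tested on simulated data. The work was done in Python 3.11.15 (scipy 1.17.1, pandas 2.3.3, numpy 2.4.6) with plots by matplotlib 3.10.9.

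The members, groups, bins and tiles were chosen with earlier results of these data known. The regions named are the 10 with the largest Cbp excess, the 5 with the largest IgG excess, the 5 with most Cbp reads with duplicates kept, the 3 widest, the 5 richest bins and the bins with extreme ratio or depth. Others were named after their values were seen. Gene tables of another build were not used, so regions have positions and no gene names. Alternatives covered duplicates, scaling, overlap counting, blocks, bin size, merging and fold.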

Additional observations from a re-analysis of the deposited data

How the results depend on the processing

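The ratios of the whole stretch (0.982 to 0.998 under its alternatives) and outside its regions (0.953 to 0.964) stayed within their counting intervals. The depth of the median bin against the rest of chromosome 1 was 1.19 to 1.32 in Cbp and 1.18 to 1.41 in IgG. It stayed within intervals that treat each median as a single count and leave out the spread between bins. The ratio inside regions (1.29) was 1.64 for the first block, 1.19 for the later blocks, 1.37 for the 2006 rows with most Cbp reads, 1.77 without bins of 10 or more regions and, added after the data were seen, 2.59 for regions outside the groups. The count of 35 regions past 2-fold was 8 for the later blocks, 2 at 4-fold and 25 to 39 under the other alternatives, 34 of them without the region at 88330943. The count with IgG higher was 0 throughout. The 12.3-fold density was 25.5 with rows not merged, 5.99 merged within 1 kb, 6.14 for the first block, 90.9 for the later blocks, 26.0 for the 2006 rows with most Cbp reads and 18.5 when merging needed 200 bp. No paired analysis was possible because neither Cbp nor IgG has a second library. Depth limits single regions: outside the groups the median region rests on 10 Cbp and 3 IgG reads.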
